A study of Mus musculus with 5 samples.

Results

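The collagen genes of the mouse esophagus were followed in transgenic mice in which a doxycycline diet induces IL-13, a type 2 cytokine. Members were taken by name, as every gene of the Mouse Genome 430 2.0 array whose symbol has the form Col, number, a, number. The rule found 42 collagen genes among 18193 genes, with 82 of the 34945 probe sets that carry a single gene symbol. A probe set is the group of probes on the array that measures one transcript region. In 15 of the genes a single probe set was present, and 27 had several. By structure the family divides into 11 fibrillar genes, 6 genes of the type IV network of basement membranes, 9 FACIT genes (fibril-associated collagens with interrupted helices) and 16 others. Col6a6 and Col28a1 had no matching probe set and were not analysed here.

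Total RNA of the esophagus was hybridised to 5 arrays. In CC10-rtta/teton-IL-13 mice on the FVB/N background, aged 3 to 4 months, a reverse tetracycline transactivator under the CC10 promoter turns on an IL-13 transgene in the presence of doxycycline. The Dox group (n = 3 arrays) was fed doxycycline and the NoDox group (n = 2 arrays) a regular diet, and both groups carry the transgenes. The CC10 promoter is active in airway club cells, so the labelled driver of the cytokine is an airway promoter and not one of the esophagus. No doxycycline-fed group lacking the transgenes entered the comparison, and effects of the drug and of IL-13 cannot be told apart. Nothing in the labels ties the arrays to separate mice, and the spread that the p-values rest on may be technical.

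Collagens are secreted proteins of the extracellular matrix in which a trio of chains winds into a helix. Fibrillar collagens such as types I, III and V form the load-bearing fibres of the submucosa, type IV collagen forms the sheet under the epithelium and around vessels and muscle fibres, FACIT collagens decorate fibril surfaces, and type VI forms beaded filaments around cells. In fibrosis of the esophagus and airway, types I and III are the chains usually looked at, and IL-13 is known as a cytokine that can promote such fibrosis, in part through TGF-beta.

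Each deposited value is a signal over the NoDox mean, so that 1 stands for that mean. The changes below are log2 fold changes, Dox minus NoDox, with their standard error (SE). They come from a limma fit over all 18193 genes with Benjamini-Hochberg adjustment, called at adjusted p under 0.05, in which the probe set of highest signal stands for each gene. With 3 against 2 arrays, exact permutation of the labels gives no p under 0.1 and was not used. The signal behind each ratio was recovered as a whole number of steps, the smallest difference the authors' signals hold. It says how bright a probe set is but not how much of one transcript there is against another. All 6 squamous epithelial marker genes (Krt4, Krt13, Krt5, Krt14, Krt15 and Trp63) were bright, at 71516 steps or more, in a tissue labelled esophagus. The median ratios of the 3 Dox arrays over all probe sets were 0.955, 0.952 and 0.926.

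Of 42 collagen genes, 0 were higher in Dox and 1, Col8a1, was lower, which is 2.38% of the family (limma, Benjamini-Hochberg adjustment). Among all 18193 genes 468 (2.57%) passed the same test, 250 higher (1.37%) and 218 lower (1.2%). The family's share is thus near that of all genes. At an unadjusted p under 0.05 there were 9 collagen genes (21.4%), 6 with higher values in Dox (14.3%) and 3 with lower (7.14%). Over all genes there were 3227 (17.7%), of which 1246 were higher (6.85%) and 1981 lower (10.9%). Of the 42, 19 had a log2 fold change above 0 and 23 below it, beside 7664 above and 10516 below among all 18193 genes. The 3 Dox arrays lay above both NoDox arrays in 7 collagen genes (16.7%, against 13.7% of all genes) and below both in 5 (11.9%, against 22.5% of all genes), and in the other 30 the groups overlapped. Above were Col27a1, Col4a4, Col16a1, Col6a1, Col6a2, Col13a1 and Col23a1, and below were Col1a1, Col3a1, Col4a5, Col6a3 and Col8a1. The split over all genes was 313 higher to 129 lower after quantile normalization, 291 to 153 after centring each array on its median, and 354 to 146 with the scale factors of the arrays undone. The collagen counts stayed at 0 higher and 1 lower under these 3 scalings.

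Col8a1 encodes a short-chain collagen that forms hexagonal networks beneath endothelia and in vessel walls, and its relative Col8a2 encodes the other type VIII chain. Their promoters are shown because Col8a1 was the one collagen past the threshold and Col8a2 the partner chain that was not. Each is the 250 bases before the RefSeq transcript start on GRCm38.p6, read 5′ to 3′ along the gene's strand, with every GC box (GGGCGG or its reverse complement CCGCCC, overlapping copies included) in capitals. The Col8a1 window lies at chr16:57754738-57754987 on the minus strand and the Col8a2 window at chr4:126286544-126286793 on the plus strand.
Col8a1: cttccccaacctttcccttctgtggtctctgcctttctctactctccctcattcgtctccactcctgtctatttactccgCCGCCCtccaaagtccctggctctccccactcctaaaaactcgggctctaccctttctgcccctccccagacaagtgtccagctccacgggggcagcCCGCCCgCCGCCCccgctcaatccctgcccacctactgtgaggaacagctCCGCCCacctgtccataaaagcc
Col8a2: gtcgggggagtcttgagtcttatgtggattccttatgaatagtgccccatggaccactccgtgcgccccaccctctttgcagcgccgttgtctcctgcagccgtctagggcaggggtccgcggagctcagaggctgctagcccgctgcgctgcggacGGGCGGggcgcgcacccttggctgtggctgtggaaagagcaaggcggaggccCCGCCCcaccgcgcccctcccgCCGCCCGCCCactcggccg
Both windows hold 4 GC boxes, and neither holds a STAT motif (TTC and GAA at the ends of 10 bases), a CCAAT box or a TATAAA box. A match or its absence describes these letters in this window only.

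The Col8a1 probe set 1455627_at had ratios of 0.554, 0.341 and 0.433 in the Dox arrays and 1.03 and 0.973 in the NoDox arrays. All 3 Dox arrays were below both NoDox arrays, at a mean ratio of 0.443 ± 0.107 (SD, n = 3). The log2 fold change was -1.20 ± 0.21 (2.30-fold lower, limma, adjusted p = 0.0202), with a 95% interval from -1.67 to -0.74. A further probe set of the gene, 1418440_at, had ratios of 0.760, 0.664 and 0.553 against 0.962 and 1.04, a log2 fold change of -0.61 ± 0.20. The dim probe set 1418441_at (1134 steps) gave -1.95 ± 1.10, with ratios of 0.535, 0.716 and 0.0457 in Dox. The Dox arrays were therefore below both NoDox arrays in all 3 probe sets, of which only 1455627_at passed the test over all probe sets (adjusted p = 0.0306, where 527 of 34945, or 1.51%, passed). Col8a1 lost its call without Dox replicate 3 (adjusted p = 0.0869), without NoDox replicate 1 (0.226) and without NoDox replicate 2 (0.192), and over all alternatives its adjusted p ranged from 0.00313 to 0.226. It also lost its call with the mean of its probe sets (adjusted p = 0.182) and with no intensity trend (0.219), while its log2 fold change stayed between -1.38 and -1.03. Col8a2, on a single probe set of 1728 steps, was at -0.12 ± 0.46, with ratios of 0.784, 1.09 and 0.906 in Dox against 1.06 and 0.937.

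**Figure D1:**
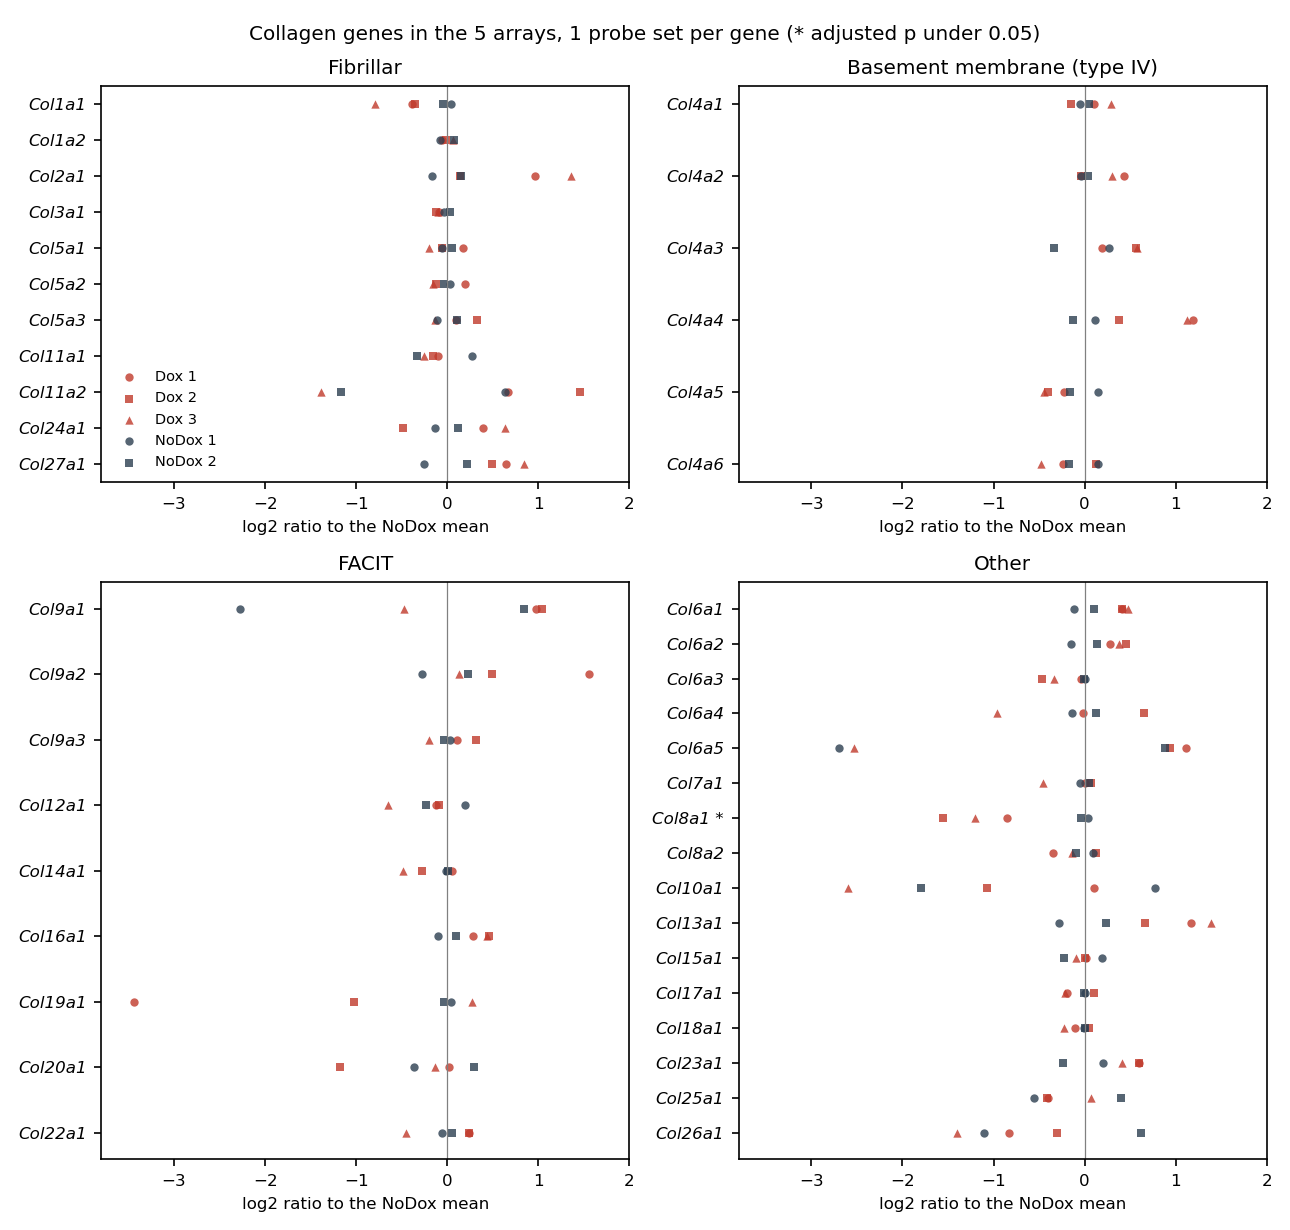
Log2 ratio to the NoDox mean (horizontal axis) of each of the 42 collagen genes, 1 probe set per gene, by class; red symbols are the 3 Dox arrays and dark symbols the 2 NoDox arrays, and the star marks adjusted p under 0.05. Col8a1 is the one starred gene, with all 3 Dox arrays to the left of both NoDox arrays, while in 30 genes the groups overlap.

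Among the fibrillar collagens 0 of 11 genes passed limma's test, with a median log2 fold change of -0.001 beside -0.084 over all genes. At an unadjusted p under 0.05 there were 2 (18.2%, against 17.7% of all genes). Col1a1 and Col1a2 encode the chains of type I collagen, the main fibre of connective tissue. Col1a1 (1423669_at) had ratios of 0.766, 0.783 and 0.579 in Dox against 1.03 and 0.969 in NoDox. Its Dox arrays lay below both NoDox arrays, and its log2 fold change of -0.51 ± 0.16 did not pass (adjusted p = 0.150, 95% interval -0.88 to -0.14). Col1a2 (1450857_a_at) had ratios of 0.962, 0.989 and 1.04 against 0.947 and 1.05. These overlapped, and the log2 fold change was -0.001 ± 0.129, with a 95% interval from -0.29 to 0.29.

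Col3a1, the single chain of type III collagen, had ratios of 0.942, 0.916 and 0.934 in Dox against 0.976 and 1.02 in NoDox. The Dox arrays were below both NoDox arrays by a small margin, with a log2 fold change of -0.10 ± 0.12 (adjusted p = 0.718) and a 95% interval from -0.38 to 0.18. The type V genes, whose chains help to start type I fibrils and set their width, were also near the NoDox mean on their brightest probe sets, Col5a1 at -0.03 ± 0.15, Col5a2 at -0.03 ± 0.15 and Col5a3 at 0.10 ± 0.20.

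Col27a1, a fibrillar collagen known from cartilage, had the smallest adjusted p of the fibrillar class. Its ratios were 1.56, 1.41 and 1.79 in Dox against 0.841 and 1.16 in NoDox, all 3 above both. The log2 fold change was 0.68 ± 0.20 (adjusted p = 0.118), and its second, dimmer probe set gave 0.36 ± 0.30. The remaining fibrillar genes, among them the cartilage genes Col2a1, Col11a1 and Col11a2, were dim and not measured well. Col2a1 (296 steps) was at 0.83 ± 0.87, Col11a1 at -0.14 ± 0.46 and Col11a2 at 0.51 ± 0.92, and Col24a1 at 0.18 ± 0.59.

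Of the type IV genes 0 of 6 passed, with a median of 0.159. At an unadjusted p under 0.05 (limma) there were 2 (33.3%, against 17.7% of all genes). Col4a1 and Col4a2 encode the chains of the network found in nearly every basement membrane. Col4a1 had ratios of 1.07, 0.904 and 1.23 in Dox against 0.964 and 1.04 in NoDox, and Col4a2 had 1.35, 0.971 and 1.24 against 0.974 and 1.03. In both genes Dox replicate 2 lay below the lower NoDox array, so the groups overlapped. Their log2 fold changes were 0.08 ± 0.16 and 0.23 ± 0.16, with 95% intervals from -0.27 to 0.44 and from -0.14 to 0.61.

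The genes of the minor type IV chains lie in head-to-head pairs, as Col4a1 and Col4a2 do, and their values had the same sign within each pair. Col4a3 was at 0.48 ± 0.40 and Col4a4 at 0.90 ± 0.36 (adjusted p = 0.233), Col4a5 at -0.35 ± 0.15 (adjusted p = 0.259) and Col4a6 at -0.19 ± 0.23. Col4a4 had ratios of 2.29, 1.30 and 2.18 in Dox against 1.08 and 0.918 in NoDox. All 3 Dox arrays were higher than both NoDox arrays on this probe set, with Dox replicate 2 the lowest of them. On its other probe sets, 1445328_at (0.625 ± 0.47) and the dim 1425772_at (1.89 ± 1.10), Dox replicate 2 lay between the NoDox arrays. Col4a5 went the other way on both of its probe sets, with ratios of 0.855, 0.756 and 0.732 against 1.11 and 0.892 on the brighter and a log2 fold change of -0.32 ± 0.18 on the other. The second probe set of Col4a3 was at -0.81 ± 0.73, of opposite sign to the first, so the shared sign of that pair depends on the probe set.

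Among the FACIT collagens 0 of 9 passed, with a median of 0.009. At an unadjusted p under 0.05 (limma) there was 1 (11.1%, against 17.7% of all genes). Col12a1 and Col14a1 encode the fibril-surface collagens of dense connective tissue. Col14a1 was at -0.24 ± 0.17 (ratios of 1.04, 0.825 and 0.717 against 0.992 and 1.01) and Col12a1 at -0.27 ± 0.25. Col16a1, a fibril-associated collagen found near cells and basement membranes, was the one FACIT gene whose groups did not overlap on its brightest probe set. Its ratios were 1.22, 1.38 and 1.35 in Dox against 0.931 and 1.07 in NoDox, a log2 fold change of 0.40 ± 0.15 (adjusted p = 0.217).

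The largest values of the class came from genes whose arrays scattered widely. Col9a1, a chain of the type IX collagen of cartilage, had ratios of 1.97, 2.05 and 0.722 in Dox against 0.206 and 1.79 in NoDox. Its NoDox arrays differed more from each other than the groups did, and the log2 fold change of 1.23 ± 0.84 became -0.33 without NoDox replicate 1 and 2.80 without NoDox replicate 2. Col19a1 (786 steps) had 0.0923, 0.491 and 1.21 against 1.03 and 0.973, a log2 fold change of -1.40 ± 1.03. Here 1 Dox array was above and 2 were below the NoDox arrays. Col9a2 was at 0.75 ± 0.97, Col9a3 at 0.08 ± 0.73 and Col22a1 at 0.01 ± 0.34. Col20a1 was at -0.39 ± 0.42 on its brightest probe set, with overlapping groups. Its probe sets 1425234_at (0.48 ± 0.34) and 1430855_at (0.78 ± 0.46) had all 3 Dox arrays above both NoDox arrays. The dim 1425236_at (350 steps) gave -0.16 ± 1.36.

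Of the other 16 collagens Col8a1 alone passed (6.25%, against 2.57% of all genes), and their median was -0.104. At an unadjusted p under 0.05 (limma) there were 4 (25.0%, against 17.7% of all genes). Col6a1, Col6a2 and Col6a3 encode the chains that join in the common form of type VI collagen, the beaded filament that surrounds muscle fibres and fibroblasts. Col6a1 had ratios of 1.33, 1.33 and 1.39 in Dox against 0.925 and 1.08 in NoDox, with all 3 Dox arrays higher, at a mean of 1.35 ± 0.0356 (SD, n = 3). The log2 fold change was 0.44 ± 0.13 (adjusted p = 0.131, 95% interval 0.14 to 0.74). Col6a2 had 1.22, 1.37 and 1.30 against 0.905 and 1.10, a log2 fold change of 0.38 ± 0.14 (adjusted p = 0.209), and its second probe set 1426947_x_at gave 0.57 ± 0.15. Col6a3 had 0.974, 0.723 and 0.790 against 1.002 and 0.998, all 3 Dox arrays lower, with a log2 fold change of -0.28 ± 0.16 (adjusted p = 0.396).

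Col6a1 and Col6a2 therefore lay above the NoDox arrays and Col6a3 below them, on probe sets whose signal was too bright to be recovered (86200 steps or more). Within an array, the log2 ratio of Col6a1 minus that of Col6a3 was 0.45, 0.89 and 0.82 in Dox against -0.11 and 0.11 in NoDox. Between Col6a2 and Col6a3 it was 0.33, 0.93 and 0.72 against -0.14 and 0.14, while Col6a1 and Col6a2 differed by 0.12, -0.04 and 0.10. The same within-array difference for Col1a1 and Col1a2 was -0.33, -0.34 and -0.85 in Dox against 0.12 and -0.12, and for Col8a1 and Col8a2 -0.50, -1.68 and -1.07 against -0.05 and 0.05. For Col5a1 and Col5a2, Col4a1 and Col4a2, Col4a3 and Col4a4, and Col4a5 and Col4a6 the groups overlapped. These differences of chains are descriptions and carry no test. Each uses only the probe set that stands for the gene. Other probe sets of Col1a1, Col1a2 and Col5a1 gave other log2 fold changes, as given below. Whether the groups separate or overlap for a pair of chains can therefore depend on the probe set. The dimmer type VI genes Col6a4 (-0.11 ± 0.61) and Col6a5 (0.75 ± 1.48) were measured too poorly to be set beside them.

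Collagens of the epithelial attachment lay near the NoDox mean. Col17a1, the transmembrane collagen of the hemidesmosome that holds basal cells to the basement membrane, had ratios of 0.875, 1.07 and 0.863 in Dox against 1.01 and 0.993 in NoDox, with overlapping groups. Its log2 fold change was -0.10 ± 0.14, with a 95% interval from -0.43 to 0.22. Col7a1, which forms the anchoring fibrils below it, was at -0.13 ± 0.19 (95% interval -0.56 to 0.31). The multiplexins of basement membranes, Col15a1 and Col18a1, were at -0.01 ± 0.17 and -0.10 ± 0.16.

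Col13a1, a transmembrane collagen of cell junctions, had ratios of 2.25, 1.58 and 2.61 in Dox against 0.826 and 1.17 in NoDox. All 3 Dox arrays were higher, by a log2 fold change of 1.09 ± 0.38 (adjusted p = 0.187), the second largest positive value of the family after Col9a1 on a probe set of 3193 steps. The transmembrane collagen Col23a1 was at 0.55 ± 0.31 on 1429209_at, with all 3 Dox arrays above, at 1.39 ± 0.77 on the dimmer 1429210_at (939 steps) and at -0.28 ± 0.36 on 1440911_at. Col25a1 (-0.17 ± 0.52) and Col26a1 (-0.60 ± 0.85) did not separate. Col10a1, known from growth-plate cartilage, had ratios of 1.07, 0.475 and 0.165 in Dox against 1.71 and 0.287 in NoDox. At 338 steps its log2 fold change was -0.68 ± 1.14, the lowest of the family after Col19a1 and Col8a1, and the groups overlapped.

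Precision followed brightness. The 7 collagen genes under 1000 steps (Col2a1, Col9a2, Col9a3, Col19a1, Col6a5, Col10a1 and Col26a1) had SEs from 0.73 to 1.48, and the 20 at 10000 steps or more from 0.123 to 0.205. In 18 of those 20 bright genes the whole 95% interval lay inside a change of 2-fold either way, against 3 of the other 22. Col8a1 and Col27a1 were the bright genes whose intervals reached past 2-fold. With the SEs that this model gives the genes under 1000 steps, a 2-fold change could not be told from none.

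**Figure D2:**
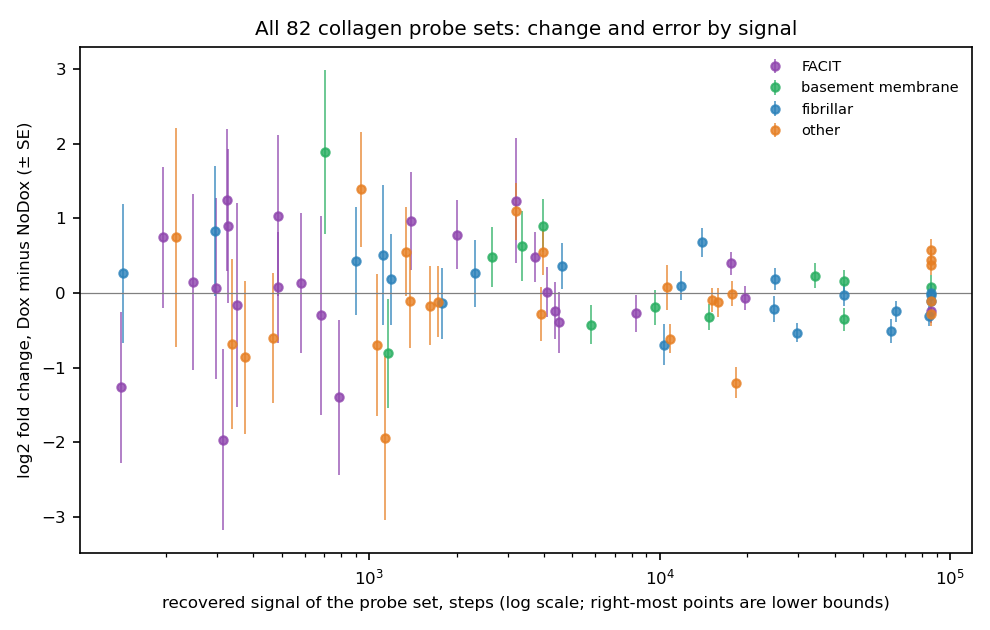
Log2 fold change, Dox minus NoDox, of all 82 collagen probe sets (points, with bars of 1 SE) against their recovered signal in steps on a log axis, coloured by class; points at the right edge are lower bounds of the signal. The scatter and the bars are widest under 1000 steps and narrow towards the brightest probe sets, and the low point at 18292 steps is Col8a1.

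Over the family, the median log2 ratio was 0.10, 0.06 and -0.13 in Dox replicates 1, 2 and 3. Dox replicate 3 was the lowest Dox array in 23 of the 42 genes and the highest in 10. Over all genes the medians of these arrays were -0.043, -0.066 and -0.09, also lowest in Dox replicate 3. The family's median log2 fold change was -0.016 as deposited, and changed sign to 0.067 after centring each array on its median, 0.062 with quantile normalization and 0.094 with the scale factors undone, which moved the median of all genes by 0.111. Set against the median of all genes it was 0.068 higher as deposited, and between 0.067 and 0.071 higher under the other scalings. On that relative scale the type IV median was 0.243 higher, the FACIT median 0.093, the fibrillar median 0.083, and that of the other collagens -0.020. With quantile normalization these were 0.290 for type IV, 0.042 for FACIT, 0.133 for fibrillar and -0.023 for the others, so the order of FACIT and fibrillar medians turned. With the mean of each gene's probe sets the type IV median became -0.022 and the FACIT median 0.346.

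In 17 of the 27 genes with several probe sets all of a gene's probe sets had log2 fold changes of 1 sign, and in 10 they did not. Col1a1 was a case of the latter on bright probe sets. The probe set 1423669_at (62347 steps) lay below both NoDox arrays, as given above, while 1455494_at (24870 steps) had ratios of 1.26, 1.09 and 1.08 in Dox against 1.05 and 0.949, above both. The log2 difference between them within an array was 0.72, 0.47 and 0.90 in Dox against 0.03 and -0.03 in NoDox, a change of 0.70 ± 0.17 (unadjusted p = 0.00237, limma over all such pairs, adjusted p = 0.426). None of the 16752 pairs over all genes passed this test (0%), and 0 of 40 collagen pairs did, with 6 collagen pairs (15%) at an unadjusted p under 0.05 beside 1398 of all pairs (8.35%). With the mean of both probe sets Col1a1 was at -0.16.

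Col1a2 and Col5a1 also gave more than one answer. The Col1a2 probe set 1423110_at (84660 steps) had ratios of 0.834, 0.752 and 0.838 against 1.04 and 0.960, a log2 fold change of -0.31 ± 0.13, beside -0.001 ± 0.131 on the brighter one in the same fit over all probe sets. For Col5a1, 1434479_at had closely matched Dox ratios of 0.698, 0.686 and 0.695 against 1.03 and 0.974, a log2 fold change of -0.53 ± 0.13 (adjusted p = 0.0977 over all probe sets). The remaining Col5a1 probe set, 1416741_at, gave -0.69 ± 0.28 with Dox below both NoDox arrays, whereas the brightest, 1416740_at, gave -0.03 ± 0.15. For Col3a1 both probe sets were below the NoDox arrays, the second at -0.25 ± 0.14. Both Col6a2 probe sets lay above the NoDox arrays and both Col4a5 probe sets had negative values.

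**Figure D3:**
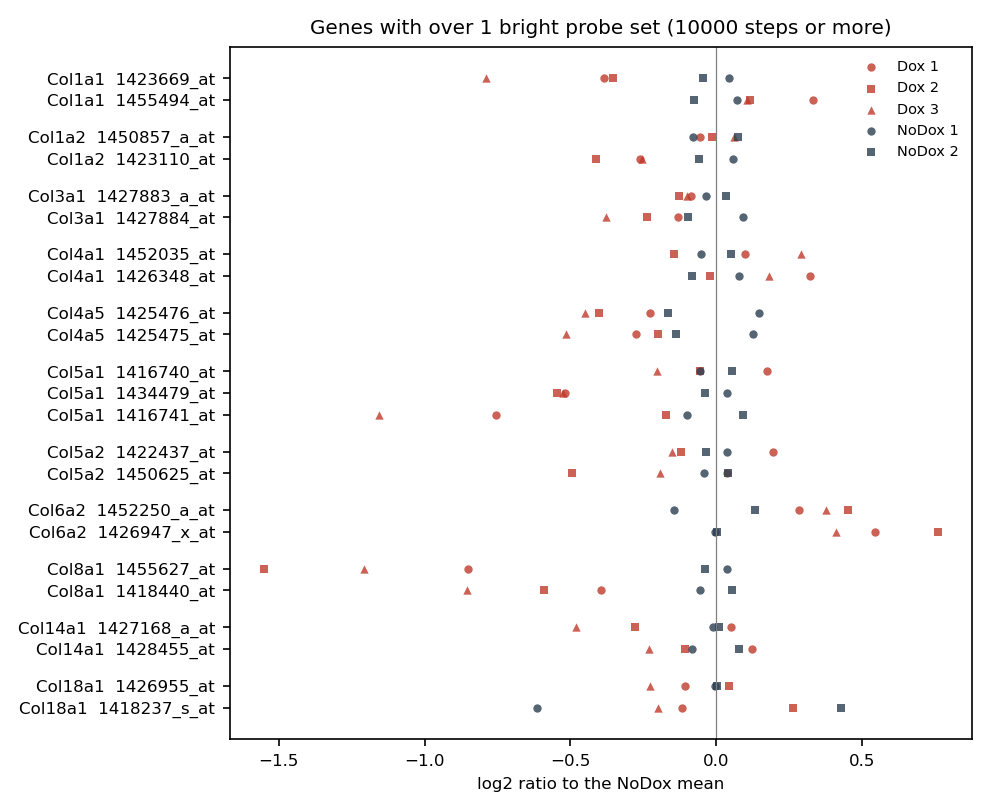
Log2 ratio to the NoDox mean (horizontal axis) in each array for the 11 collagen genes with more than 1 probe set at 10000 steps or more, 23 probe sets in all, grouped by gene; red symbols are the 3 Dox arrays and dark symbols the 2 NoDox arrays. The Col1a1 probe sets lie on opposite sides of the NoDox arrays, the Col5a1 probe sets differ, and both Col8a1 probe sets lie to the left.

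The genes that make, assemble and remove collagen were read from 6 lists taken from general knowledge. Of 72 such genes 5 were higher in Dox and 0 lower (6.94%, against 2.57% of all genes), and their median log2 fold change was 0.003. The listed genes were brighter, at a median of 22324 steps against 8556 over all genes, so these shares are not like for like. The lists were also chosen with earlier results of these data known. Over all genes 1.37% were called higher and 17.7% had an unadjusted p under 0.05 (limma), shares to set beside the list counts below. Among 23 genes of chain modification and folding 1 rose, Creb3l1, a transcription factor that switches on collagen and secretory genes in bone and fibroblasts. Its ratios were 1.97, 1.89 and 2.89 in Dox against 1.10 and 0.903 in NoDox, all 3 higher, a log2 fold change of 1.15 ± 0.24 (2.22-fold, adjusted p = 0.0412, limma with Benjamini-Hochberg adjustment). Sec24d, a coat protein of the vesicles that carry procollagen, was at 0.57 ± 0.15 (adjusted p = 0.0912). Serpinh1, the collagen chaperone HSP47, was at -0.49 ± 0.14 (adjusted p = 0.124), with Dox ratios of 0.812, 0.691 and 0.643 below both NoDox arrays.

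Outside the cell, 0 of 10 genes of propeptide processing and cross-linking passed (2 at an unadjusted p under 0.05, limma). The cross-linking enzyme Lox had ratios of 2.15, 1.37 and 1.73 against 1.13 and 0.870, all 3 higher, at 0.80 ± 0.22 (adjusted p = 0.0994). Bmp1, a procollagen C-proteinase, was at 0.38 ± 0.16, and Loxl3 at 0.36 ± 0.20. Among 8 partners of fibril assembly Fn1 rose, the gene of fibronectin, on which new collagen fibrils are laid. It had ratios of 1.98, 2.17 and 1.71 in Dox against 0.957 and 1.04 in NoDox, a log2 fold change of 0.96 ± 0.15 (adjusted p = 0.0135). The fibril-binding genes Tnxb (-0.50 ± 0.14, adjusted p = 0.114) and Lum (-0.62 ± 0.28, adjusted p = 0.302) had negative values.

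Of 12 genes of degradation 2 rose. Mmp14, a membrane-bound collagenase, had ratios of 1.88, 1.79 and 1.52 against 1.07 and 0.935, at 0.79 ± 0.15 (adjusted p = 0.0280). The metalloproteinase inhibitor Timp1 had 2.74, 1.88 and 3.10 against 0.820 and 1.18, at 1.36 ± 0.28 (adjusted p = 0.0397). Both groups of arrays were separate in each of these genes, as in the gelatinase Mmp9 at 1.22 ± 0.27 (adjusted p = 0.0551). Among 10 regulators Tgfb1, the cytokine best known for driving collagen synthesis, rose by 1.01 ± 0.20 (adjusted p = 0.0339), with ratios of 1.83, 1.91 and 2.24 against 1.16 and 0.840. Tgfb3 was at -0.32 ± 0.15 and the transcription factor Osr2 at -0.52 ± 0.23. Of 9 collagen receptors 0 passed (3 at an unadjusted p under 0.05, limma), with Itgb1 at -0.66 ± 0.21, Ddr2 at -0.39 ± 0.15 and Ddr1 at 0.35 ± 0.15.

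The 5 genes that rose kept their calls in few of the 5 fits with 1 array left out, Fn1 in 3 and Creb3l1, Mmp14, Timp1 and Tgfb1 in 1 each, with adjusted p up to 0.189, 0.341, 0.283, 0.331 and 0.323. Without NoDox replicate 1 or NoDox replicate 2 all 5 lost their call, and without Dox replicate 1 or Dox replicate 3 so did all but Fn1. With no intensity trend none of the 5 passed. With the mean of a gene's probe sets Tgfb1 was at 0.61 (adjusted p = 0.290) and Mmp14 at 0.76 (adjusted p = 0.0939), and with adjustment over all probe sets Creb3l1 (adjusted p = 0.0539) and Timp1 (0.0519) lost their calls.

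**Figure D4:**
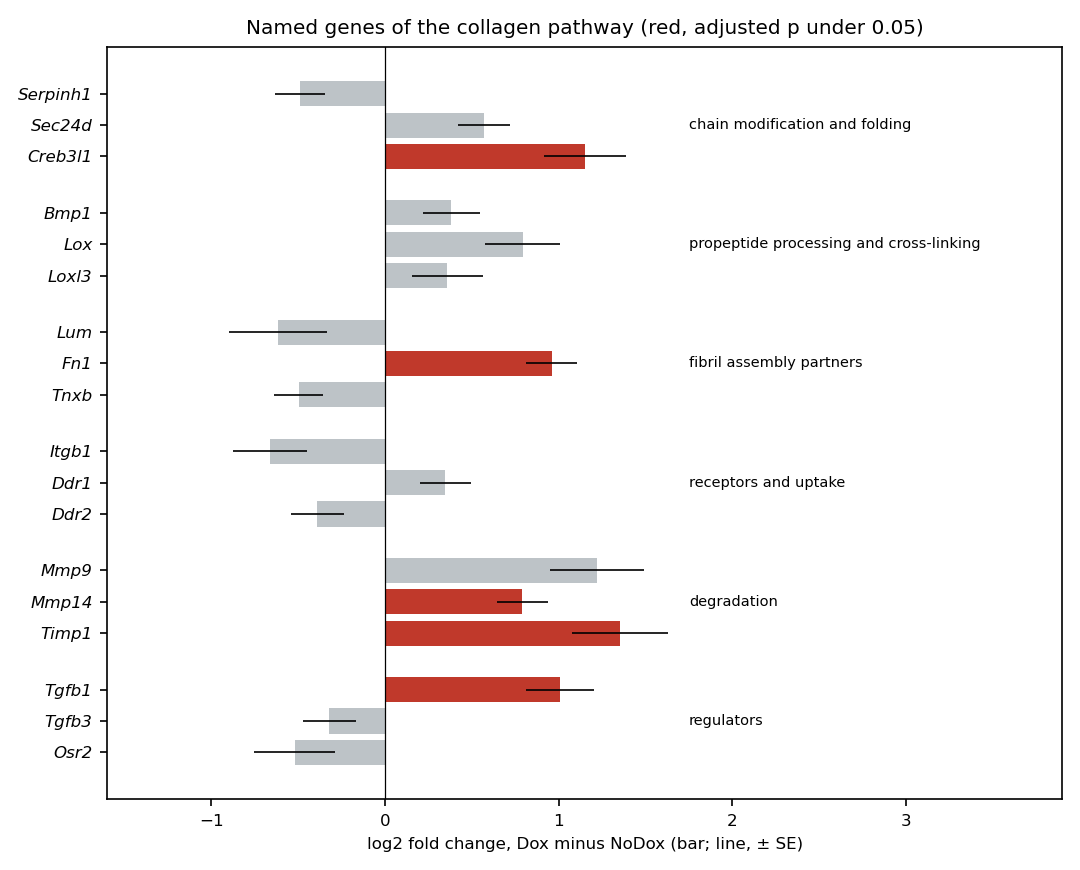
Log2 fold change, Dox minus NoDox (bars from 0, with lines of 1 SE), of 18 genes of the collagen pathway in 6 lists, namely the genes past the threshold and those of smallest p in each list; red bars have adjusted p under 0.05. Red are Creb3l1, Fn1, Mmp14, Timp1 and Tgfb1, all above 0.

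Markers of the cell types in the tissue differed in part between the groups. Over all genes 1.37% were called higher, 1.2% were called lower and 17.7% had an unadjusted p under 0.05 (limma). The Dox arrays lay above both NoDox arrays in 13.7% of all genes and below both in 22.5%. Of 10 fibroblast genes 0 passed (5 at an unadjusted p under 0.05, limma; 2 above 0 and 8 below), and their mean ratio ranged from 0.797 to 1.02 in Dox against 0.966 to 1.03 in NoDox. The 5 smooth muscle genes were all below 0, with 0 past the threshold (3 at an unadjusted p under 0.05) and a mean ratio of 0.646 to 0.761 against 0.894 to 1.11. Of 11 skeletal muscle genes 4 were lower, with a mean ratio over the list of 0.415 to 0.550 against 0.954 to 1.05. Single members differed widely in their mean Dox ratio. It was 0.015 for Myl2, 0.060 for Myh7, 0.12 for Myh4, 0.13 for Tnnc1, 0.29 for Myh2 and 0.37 for Tnnt1. The others were nearer the NoDox mean, with Ttn at 0.78, Des at 0.83, Ckm at 0.90, Myh1 at 0.93 and Acta1 at 0.94. Of 5 lung and airway genes 3 were higher, at 2.84 to 7.46 against 0.942 to 1.06, and all 4 macrophage genes were higher, at 2.08 to 2.49 against 0.940 to 1.06. Of 5 endothelial genes Plvap was higher, at list means of 1.15 to 1.5 against 0.965 to 1.03, and of 10 cartilage genes 0 passed (0 at an unadjusted p under 0.05), with 8 overlapping between groups, Comp above and Sox9 below both NoDox arrays. All 4 adipocyte genes were below 0, with 0 past the threshold (2 at an unadjusted p under 0.05) and a mean ratio of 0.439 to 0.699 against 0.955 to 1.04. Within that list the dim Lep (477 steps) had a mean Dox ratio of 0.082, beside 0.68 for Cidec, 0.76 for Adipoq and 0.77 for Fabp4. No marker of these lists stood at the lowest deposited value. The part of these cell types in the collagen and pathway values was not tested, and in whole tissue fewer cells of a type and less RNA per cell cannot be told apart.

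Promoter windows were at hand for 33 of the 42 collagen genes, 36 windows of 250 bases in all, from RefSeq on GRCm38.p6. Searched on both strands, the GC box GGGCGG was in 21 of the 36 (58.3%), against 32.7% of 32851 windows of the same length. The CCAAT box was in 13 (36.1%, against 33.8%) and TATAAA in 5 (13.9%, against 12.4%). The STAT motif, of the kind bound by STAT6, the factor activated by the IL-13 receptor, was in 0 of 36 (5.9% of all windows). These shares describe the letters in the windows, and nothing about the factors follows from them.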

How the data were processed

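Gene expression was measured on 5 Affymetrix Mouse Genome 430 2.0 arrays, grouped as Dox or NoDox by their titles. RNA was prepared with Trizol and biotin-labelled from random primers, per the labels' protocols. Signals were made with Microarray Suite 5.0 and normalized in GeneSpring 7.3.1 pair-wise to unstimulated controls, per the labels. The values show a common NoDox mean for all arrays instead. Each value the authors deposited is a ratio, found on the values to be a signal over the NoDox mean, as the NoDox ratios add up to 2 (tolerance 0.0001) for 45099 of 45101 probe sets. The number of arrays limits the precision.

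Whole signal steps that give a probe set's 5 ratios were searched after 1 scale factor per array had been estimated from the ratios. The search ran to at most 200000 steps and stopped earlier once more than 0.01 chance solutions were to be expected. A level was found for 42487 probe sets (94.2%), against 0.85% with shuffled ratios. The others got as a lower bound the level to which the search reached, 86200 steps for the collagens. Probe sets of a gene tied at this bound, as both of Col6a2 were, were ranked by the suffix of their name and not by signal. Of 82 collagen probe sets 72 had a level. A single gene symbol was given for 34945 probe sets, several for 932 and none for 9160, beside 64 controls.

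The test was limma 3.58.1 (R 4.3.3) on log2 of the ratios, with lmFit and then eBayes with the log2 level as trend, two-sided, with 3 residual and 5.83 prior degrees of freedom. The fit was tested on simulated data. Tables and plots used Python 3.11.15, numpy 2.4.6, pandas 2.3.3 and matplotlib 3.10.9. Alternatives covered scaling, an offset, a level filter, the probe set, the variance model, array weights, replicate numbers, the threshold and single arrays. The members, the classes, the gene lists and the tests were chosen with earlier results of these data known. Named are all collagen genes and, of each pathway list, the genes past the threshold and the 3 of smallest p.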

Additional observations from a re-analysis of the deposited data

How the results depend on the processing

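Collagen genes higher in Dox stayed at 0 under every alternative tried, and Col8a1 was the 1 lower gene in all but 5 of them. The collagen count was 0 lower with the mean of a gene's probe sets and with no intensity trend, and 0 to 1 with 1 array left out. Over all genes, 250 higher and 218 lower became 6 and 0 with no trend, 444 and 514 with array weights, and 455 and 504 at adjusted p under 0.1. The lower count was 129 with quantile normalization and 140 with the mean of probe sets. Leaving out 1 array gave 43 to 381 higher and 9 to 501 lower. The median of all genes, -0.084, was -0.001 with centred arrays, -0.009 with quantile normalization, 0.027 with the scale factors undone (an alternative chosen after seeing the data) and -0.11 to -0.074 with 1 array left out. The FACIT median, 0.009, was 0.346 with the mean of probe sets and -0.108 to 0.212 with 1 array left out, and the basement membrane median, 0.159, was -0.022 with the mean of probe sets. The cause of these shifts was not tested.

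Same-numbered Dox and NoDox arrays did not deviate together (correlations of 0.031 and 0.052 over genes), so the numbers were not taken to pair the arrays. With the replicate block limma called 345 genes higher and 429 lower, 0 collagen genes higher and 1 lower, and the FACIT median was 0.212. This block leaves Dox replicate 3 without a partner. The number of arrays and the dim signal of 7 collagen genes limit what can be seen.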
